A study of Mus musculus with 8 samples.

Results

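The 10 genes described here encode the core proteins that make microRNAs and carry them to their targets: Drosha, Dgcr8, Xpo5, Dicer1, Tarbp2, Prkra, Ago1, Ago2, Ago3 and Ago4. They were chosen by name, all 10 were measured, and they stand among 19938 genes on the arrays. RNA levels came from 8 primary osteosarcomas, malignant tumours of bone-forming cells, of C57Bl6 mice, with 1 array per tumour. The 4 shRNA OS tumours came from mice whose p53 genotype is given as P53.1224, a hairpin against p53. The 4 Cre:lox OS tumours came from mice with both p53 alleles floxed (P53fl/fl), and no hairpin is listed for them. Rb was Rb+/+ in shRNA OS replicate 2 and in Cre:lox OS replicate 1, and Rbfl/+ in the 6 others. Of the shRNA OS tumours, replicates 1 to 3 came from the tibia and replicate 4 from the humerus. Of the Cre:lox OS tumours, replicates 3 and 4 came from the tibia, replicate 2 from the humerus and replicate 1 from the scapula. The sources used here give neither the age of the mice nor the promoter that drives the hairpin or Cre. The tumours are whole tissue, so fewer cells of a type and less RNA per cell cannot be told apart.

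A microRNA begins as a long primary transcript. In the nucleus the RNase III enzyme Drosha, with its partner Dgcr8, cuts out a hairpin, and exportin 5 (Xpo5) carries it to the cytoplasm. There Dicer1, with the double-stranded RNA binding partners Tarbp2 and Prkra (PACT), cuts off the loop, and an Argonaute protein takes up a strand of the duplex. All 4 mammalian Argonautes repress messages paired to the bound strand, and Ago2 is the one best known for cutting them. A short hairpin RNA expressed from a transgene passes through the same Dicer and Argonaute steps as a natural microRNA precursor. The comparison of the models sets tumours with a hairpin against p53 beside tumours with floxed p53 alleles. The presence of a hairpin and the way p53 is targeted therefore cannot be told apart in it. Levels of the hairpin were not analysed here.

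All values are log2 expression from robust multi-array average (RMA), a method that corrects, normalises and summarises the probes of each gene. The array medians lay between 7.13 and 7.23. shRNA OS replicate 2 was the array least like the rest. Its correlation with the others averaged 0.941, against 0.961 to 0.968 for the remaining 7, and its interquartile range was 2.59, against 2.79 to 3.19. Of 9 osteoblast lineage markers 6 were measured, with Col1a1, the main collagen gene of bone, highest in level. All 6 lay above the array median in all 8 tumours. Their list means ran from 12.39 to 12.56 in shRNA OS and from 11.67 to 12.59 in Cre:lox OS. All 6 macrophage and all 5 endothelial markers also lay above it in all 8, so this does not set bone-forming cells apart. Pth1r, 1 of the 6, was 9.97 and 9.57 in Cre:lox OS replicates 3 and 4, against 11.34 to 11.93 in the other tumours. Of the 6 osteoblast lineage markers 4 were higher and 2 lower on average in shRNA OS, with a median difference of 0.18. It ran from 0.06 without Cre:lox OS replicate 3 to 0.32 without Cre:lox OS replicate 2. The p53 transcript is not analysed here, so the targeted gene gives no check of the labels.

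Ago2 had the largest difference of the 10 genes between the models. It was 10.76, 11.49, 10.95 and 11.38 in shRNA OS replicates 1 to 4, against 10.19, 10.29, 10.29 and 10.61 in Cre:lox OS replicates 1 to 4. Every shRNA OS tumour lay above every Cre:lox OS tumour, though shRNA OS replicate 1 and Cre:lox OS replicate 4 came close. The means were 11.15 ± 0.34 and 10.34 ± 0.18 (SD, n = 4 each), a difference of 0.80 (SE 0.19, 95% confidence interval 0.38 to 1.22), or 1.74-fold. In limma's test over all genes this had an adjusted p of 0.22 and the rank 161 by p among 19938 genes, so it did not pass the threshold of 0.05. A further Ago2 probe set differed in the same direction, by 0.68 (SE 0.22), with means of 10.37 in shRNA OS and 9.69 in Cre:lox OS and with overlapping values (9.90 in shRNA OS replicate 1 and 10.01 in Cre:lox OS replicate 4).

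Ago3 differed the other way. It was 9.07, 8.35, 9.21 and 8.88 in shRNA OS replicates 1 to 4, against 9.45, 9.29, 9.42 and 9.83 in Cre:lox OS replicates 1 to 4. The models did not overlap, and the lowest value by far belonged to shRNA OS replicate 2. The means were 8.88 ± 0.37 in shRNA OS and 9.50 ± 0.24 in Cre:lox OS, a difference of -0.62 (SE 0.21, 95% confidence interval -1.08 to -0.16) with a limma adjusted p of 0.369. Without shRNA OS replicate 2 the difference was -0.45, with a limma adjusted p of 0.497.

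Ago1 and Ago4 lie beside Ago3 on chromosome 4, in the order Ago3, Ago1, Ago4, and did not share 1 direction. Ago1 was 9.09, 8.86, 9.16 and 9.14 in shRNA OS replicates 1 to 4, against 9.44, 9.52, 9.08 and 9.53 in Cre:lox OS replicates 1 to 4. Only Cre:lox OS replicate 3 fell among the shRNA OS values, and the difference was -0.33 (SE 0.15, limma adjusted p = 0.518). Ago4 was 7.45, 7.35, 8.02 and 7.87 in shRNA OS replicates 1 to 4, against 7.38, 7.62, 7.01 and 7.11 in Cre:lox OS replicates 1 to 4. It had the higher mean in shRNA OS, by 0.39 (SE 0.20, limma adjusted p = 0.57), with overlapping models. On the same array, the log2 ratio of Ago4 to Ago3 was -1.62, -1.004, -1.19 and -1.01 in shRNA OS replicates 1 to 4, against -2.07, -1.67, -2.41 and -2.72 in Cre:lox OS replicates 1 to 4. The level of such a ratio between probe sets has no meaning of its own, and its mean was 1.01 higher in shRNA OS. The 2 models did not overlap in it, which was seen after the values and not tested.

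**Figure D1:**
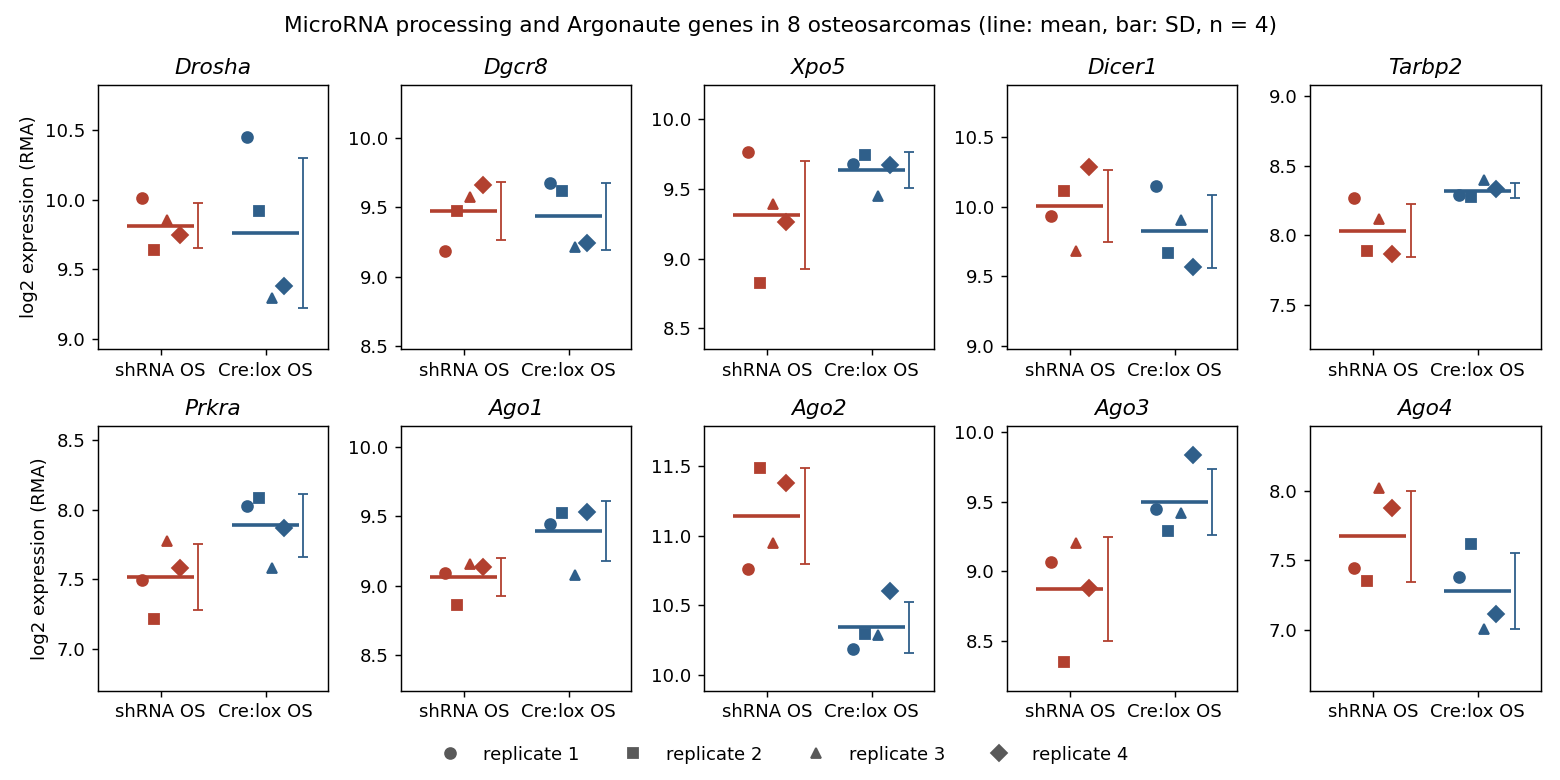
Log2 expression (y axis, RMA) of the 10 genes in the 4 shRNA OS tumours (red) and the 4 Cre:lox OS tumours (blue), with the marker shape giving the replicate number; lines are means, bars are SD (n = 4), and all panels span the same log2 range. The red points of Ago2 all lie above the blue ones, those of Ago3 and Tarbp2 all lie below, and the models overlap in the other 7 genes.

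The nuclear enzyme genes had nearly equal means in the models. Drosha, the RNase III enzyme of the nuclear step, was 10.01, 9.64, 9.86 and 9.75 in shRNA OS replicates 1 to 4, against 10.45, 9.92, 9.30 and 9.38 in Cre:lox OS replicates 1 to 4. The highest and the lowest of the 8 values were thus both in Cre:lox OS, where the SD was 0.54 against 0.16 in shRNA OS. The difference was 0.05 (SE 0.25, 95% confidence interval -0.50 to 0.60). Dgcr8, the RNA-binding partner of Drosha, ranged from 9.18 to 9.66 in shRNA OS and from 9.21 to 9.67 in Cre:lox OS, a difference of 0.04 (SE 0.17, 95% confidence interval -0.33 to 0.41). The limma adjusted p was 0.969 for Drosha and 0.967 for Dgcr8.

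Xpo5, the exporter of precursor hairpins, ranged from 8.83 to 9.77 in shRNA OS and from 9.45 to 9.74 in Cre:lox OS. Its difference of -0.32 (SE 0.19, limma adjusted p = 0.659) leaned on shRNA OS replicate 2, which held the lowest value, and was -0.16 without it. Dicer1, the cytoplasmic RNase III enzyme, was 9.93, 10.11, 9.68 and 10.28 in shRNA OS replicates 1 to 4, against 10.15, 9.67, 9.90 and 9.56 in Cre:lox OS replicates 1 to 4. The models interleaved, and the difference was 0.18 (SE 0.18, 95% confidence interval -0.22 to 0.59, limma adjusted p = 0.828). Leaving out the fourth tumour of shRNA OS gave 0.09 and the fourth of Cre:lox OS 0.10, while omitting the third of shRNA OS or the first of Cre:lox OS gave 0.29.

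Both Dicer1 partners had lower means in shRNA OS. Tarbp2 was 8.27, 7.89, 8.11 and 7.86 in shRNA OS replicates 1 to 4, against 8.29, 8.27, 8.40 and 8.33 in Cre:lox OS replicates 1 to 4. The Cre:lox OS values were tightly grouped (SD 0.06, against 0.19 in shRNA OS), and the models did not overlap by a narrow margin, 8.2686 in shRNA OS replicate 1 against 8.2725 in Cre:lox OS replicate 2. The difference was -0.29 (SE 0.13, limma adjusted p = 0.536). A further Tarbp2 probe set gave -0.28 (SE 0.16), with overlapping values (7.44 in shRNA OS replicate 1 and 7.16 in Cre:lox OS replicate 4). Its number falls among those of microRNA loci on chromosome 6, while Tarbp2 lies on chromosome 15. Whether it reads Tarbp2 itself was not tested. Prkra was 7.50, 7.21, 7.78 and 7.58 in shRNA OS replicates 1 to 4, against 8.02, 8.09, 7.58 and 7.87 in Cre:lox OS replicates 1 to 4. The difference for Prkra was -0.37 (SE 0.17, limma adjusted p = 0.521), with Cre:lox OS replicate 3 inside the shRNA OS range. In shRNA OS, replicate 2 was the lowest of the 4 for Xpo5, Prkra, Ago1, Ago3, Ago4 and Drosha and the highest for Ago2.

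Of the 10 genes, 5 were higher on average in shRNA OS and 5 lower, and the median difference was -0.13, against 0.01 over all genes. Leaving out shRNA OS replicate 2 moved the median to -0.06. The split was 3 higher and 7 lower when Cre:lox OS replicate 3 or 4 was left out. None of the 10 passed limma's test, where 0.0201% of all genes were called (0.015% higher and 0.00502% lower in shRNA OS). An unadjusted p under 0.05 was reached by 3 of the 10 (Ago2, Ago3 and Ago1), where 9.63% of all genes reached it (3.61% higher and 6.02% lower). With the arrays centred on their medians 5 of the 10 reached it, 1 higher and 4 lower. In that setting 601 of 19938 genes reached it as higher and 1364 as lower. The groups did not overlap in 3 of the 10 (Ago2, Ago3 and Tarbp2), where this held for 5.44% of all genes (2% higher and 3.44% lower). The median absolute difference was 0.33 for the 10 genes and 0.15 for all genes. Within the models the 10 genes varied about as much as other genes, with a median SD of 0.27 against 0.26. Tarbp2 varied least within the models (SD 0.14, percentile 10.7 of all genes) and Drosha most (SD 0.40, percentile 78.8).

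**Figure D2:**
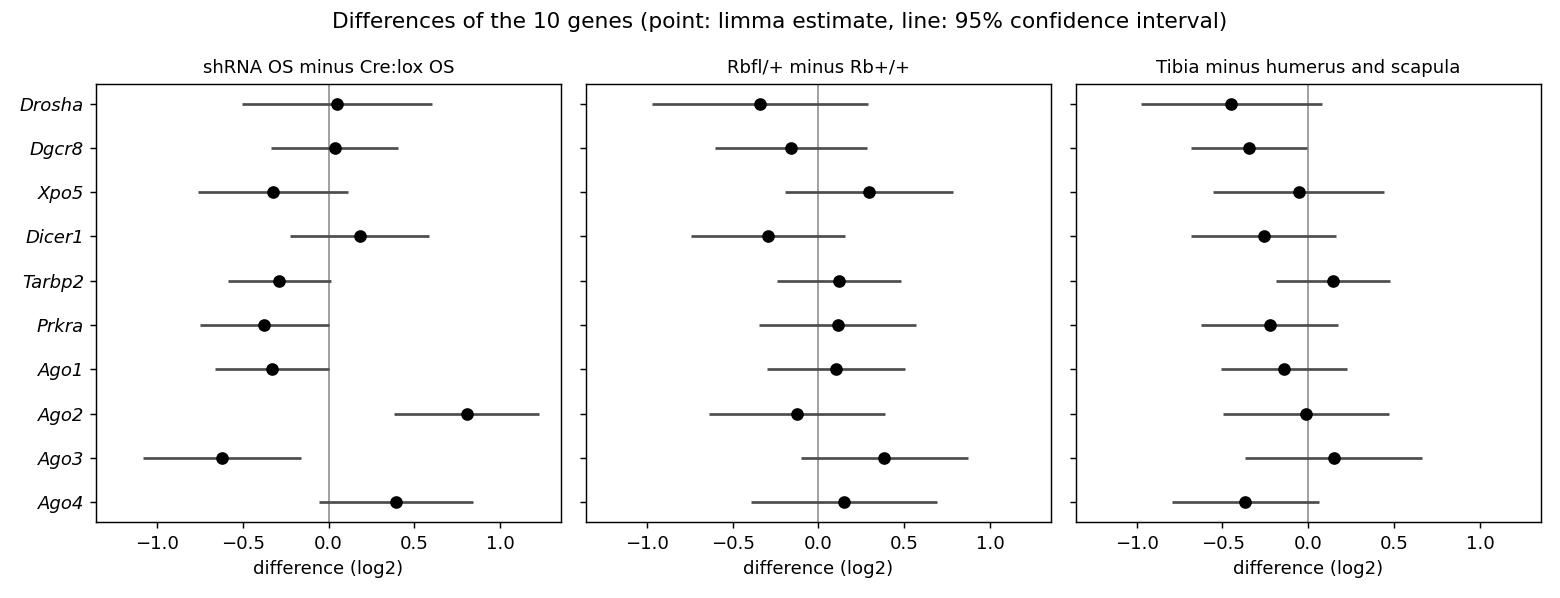
Difference in log2 expression (x axis) of each of the 10 genes for shRNA OS minus Cre:lox OS, for Rbfl/+ minus Rb+/+ and for tibia minus humerus and scapula, the last 2 with the model as a covariate; points are limma estimates and lines 95% confidence intervals without adjustment for many genes. Ago2 at 0.80 and Ago3 at -0.62 lie farthest from 0 in the comparison of models, and no gene passed in any of the 3 comparisons.

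Ago2 lies on chromosome 15 in a stretch of genes that were higher on average in shRNA OS. Of the 10 measured genes on each side, all 20 had a higher mean in shRNA OS, with a median difference of 0.44. Of all 19938 genes, 10351 had a higher mean. Of the 20, 7 reached an unadjusted p under 0.05, where 3.61% of all genes did so as higher and 6.02% as lower. The next gene on one side, Chrac1, which encodes a histone-fold protein of chromatin remodelling complexes, differed by 1.56 (SE 0.26, limma adjusted p = 0.112). On that side Trappc9, a subunit of a vesicle tethering complex, differed by 1.31 (SE 0.24, limma adjusted p = 0.134). Both differences were larger than that of Ago2. The largest of the 20, also on that side, was that of Col22a1, at 1.69 (SE 0.36, limma adjusted p = 0.192). The next on the other side was the microRNA locus Mir151, at 0.97 (SE 0.25, limma adjusted p = 0.246).

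The neighbours were shifted most in 1 tumour. The median deviation of the 20 neighbours from their own means was -0.08, 0.86, -0.08 and 0.31 in shRNA OS replicates 1 to 4, against -0.23, -0.28, -0.18 and -0.30 in Cre:lox OS replicates 1 to 4. In 15 of the 20 the highest value was that of shRNA OS replicate 2, where 21.4% of all genes had their highest value. Without this tumour the median difference of the neighbours was 0.33 and that of Ago2 0.69 (limma adjusted p = 0.321). Each gene was also set against its 20 neighbours, either minus their median level or, in a form added after the data were seen, minus their median deviation from their own means. The Ago2 difference was then 0.38 (SE 0.15, limma adjusted p = 0.406) with the level and 0.30 (SE 0.15, limma adjusted p = 0.56) with the deviation subtracted. The median level on an array is set by the neighbours of middle level, so it need not follow a shift of all 20. The part of the neighbourhood in the difference of Ago2 was not tested.

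**Figure D3:**
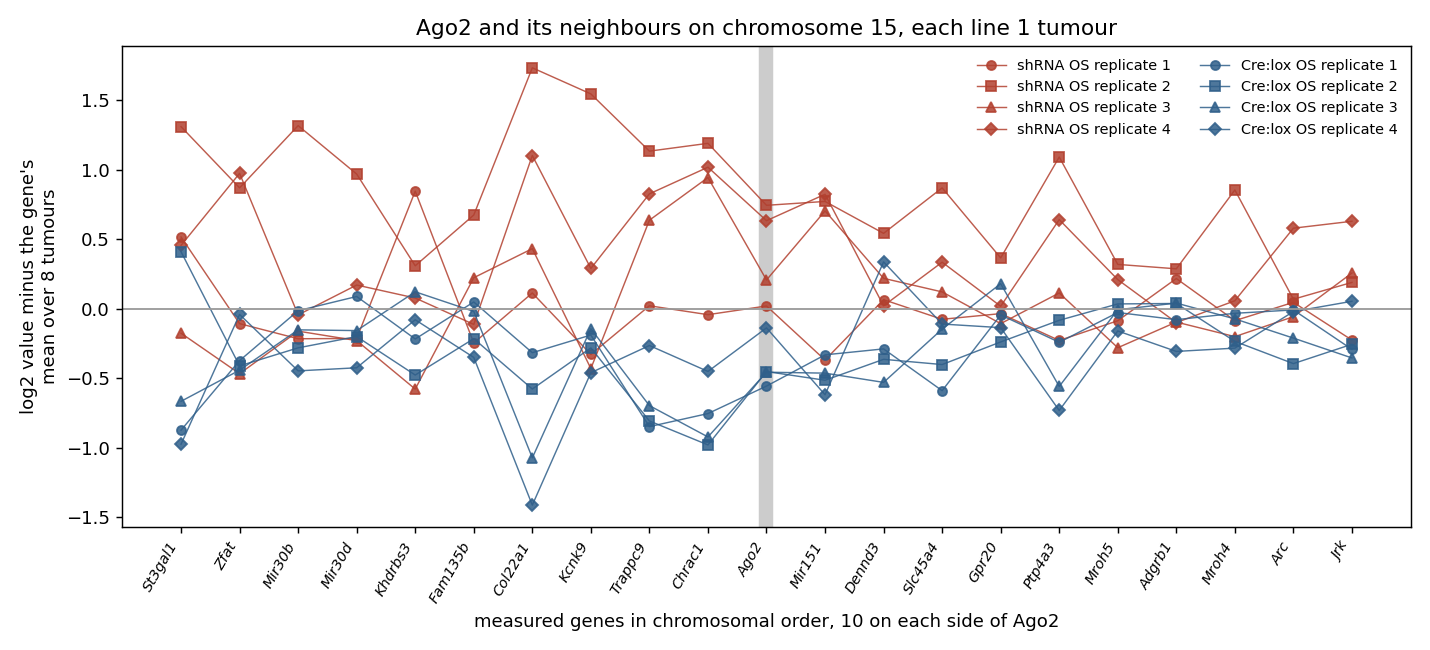
Log2 value of each gene minus its mean over 8 tumours (y axis) for Ago2 (grey band) and the 10 measured genes on each side in chromosomal order (x axis, order only, not distance); each line is 1 tumour, red for shRNA OS and blue for Cre:lox OS. The line of shRNA OS replicate 2 is the highest in 15 of the 20 neighbours. All red lines stand above all blue lines at Col22a1, Trappc9, Chrac1, Ago2 and Slc45a4. At Mir151, Ptp4a3 and Jrk only the red lines of replicates 2 to 4 do.

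The neighbourhoods of the other genes were shifted less. The median neighbour difference was -0.10 for Ago3 and Ago1 and -0.16 for Ago4. Lower means in shRNA OS were held by 15 or 16 of their 20 neighbours and by 9587 of all 19938 genes. These 3 genes count among each other's neighbours, and next to them Tekt2 stood at -0.17 (SE 0.23) and Clspn at -0.05 (SE 0.19). With the median deviation of the neighbours subtracted, Ago3 stood at -0.54 (SE 0.18), Ago1 at -0.24 (SE 0.12) and Ago4 at 0.52 (SE 0.18), with limma adjusted p of 0.385, 0.556 and 0.385. With their median level subtracted, Ago3 stood at -0.48, Ago1 at -0.12 and Ago4 at 0.60. For Tarbp2, between Map3k12 (-0.20) and Npff (0.09), the median neighbour difference was 0.03, and the Tarbp2 difference was -0.33 (SE 0.11, limma adjusted p = 0.361) with the deviation subtracted but 0.0144 (SE 0.17) with the level subtracted. The neighbours of Prkra had a median difference of -0.18, with 17 of 20 lower on average in shRNA OS, though the nearest, Osbpl6 and Pjvk, stood at 0.01 and -0.02. Prkra itself stood at -0.19 (SE 0.15) with the deviation subtracted and, with the direction turned, at 0.27 (SE 0.20) with the level subtracted. For Dicer1 these values were 0.09 (SE 0.15) and 0.18 (SE 0.16), for Xpo5 -0.24 (SE 0.15) and -0.43 (SE 0.17). The neighbours of Drosha, of which the nearest were 6030458C11Rik (0.16) and Cdh6 (0.50), stood at -0.32 and -0.22 in Cre:lox OS replicates 3 and 4, the tumours with the lowest Drosha values, but highest, at 0.35, in shRNA OS replicate 2, where Drosha was the lowest of its model.

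Across the 8 tumours the 10 genes did not move as 1 unit. Of their 45 pairs, 25 correlated positively and 20 negatively, from -0.92 to 0.93, with a median of 0.15. These are descriptions over 8 arrays that also share array quality and tumour model. The highest belonged to Prkra and Ago1, at 0.93 pooled, 0.89 without shRNA OS replicate 2 and 0.87 for deviations from the model means. The lowest belonged to Ago2 and Tarbp2, at -0.92 pooled, -0.88 without shRNA OS replicate 2 and -0.81 within models. Ago2 also correlated negatively with Xpo5 (-0.79 pooled, -0.75 within models) and with Ago3 (-0.78 pooled, -0.39 within models). Prkra and Ago4 correlated at 0.11 pooled and at 0.90 within models, and the means of the pair differed between the models in opposite directions.

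**Figure D4:**
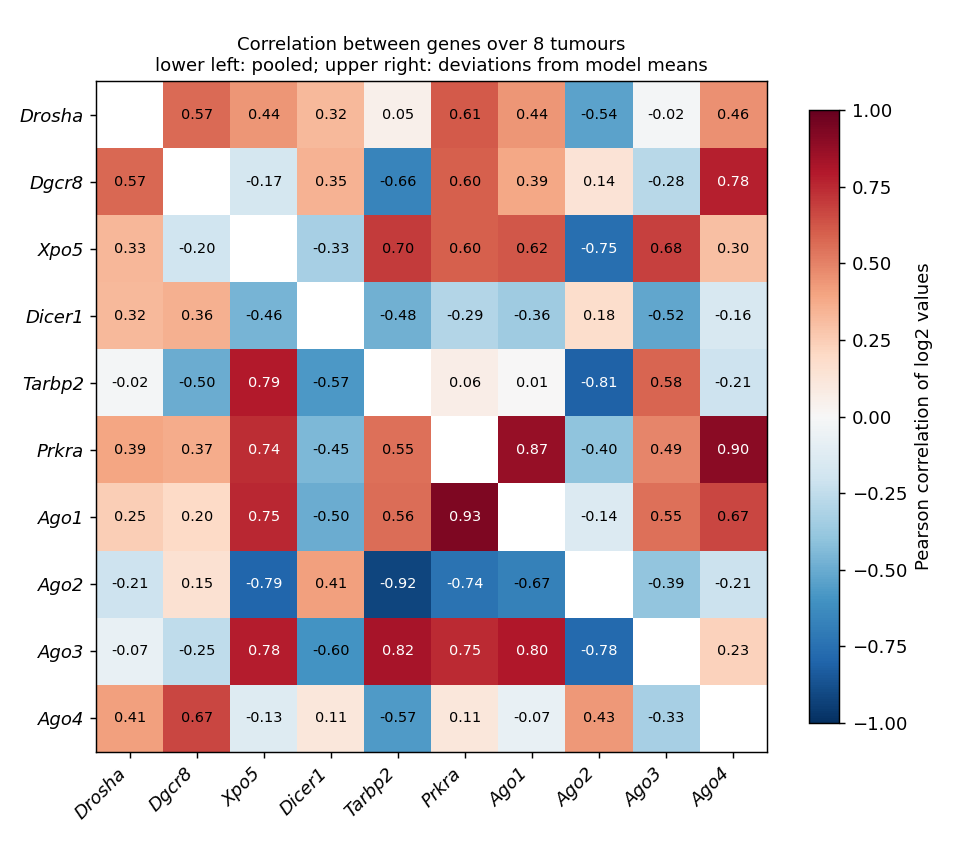
Pearson correlation between the log2 values of each pair of the 10 genes over 8 tumours, pooled in the lower left and computed on deviations from the model means in the upper right (colour scale from -1 to 1). Ago2 is negative with Xpo5, Tarbp2, Prkra, Ago1 and Ago3 in both parts, and Prkra is positive with Ago1 in both.

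Of 18612 other named genes, that with the pattern most like Ago2 over the 8 tumours was its neighbour Trappc9, with a correlation of 0.98. It was followed by Zkscan14 (0.97), Chrac1 (0.96), Fhl2 (0.94) and Igf1os (0.94). Trappc9 and Chrac1 lie within 2 places of Ago2, and the other 3 lie on other chromosomes. The gene most like Drosha was Nup155 (0.99), a nuclear pore gene also on chromosome 15, and that most like Dgcr8 was Heg1 (0.98), on chromosome 16 as is Dgcr8. Xpo5 was most like Rrp36 (0.98) on its own chromosome 17, and Prkra most like Nelfb (0.98) on its own chromosome 2. Dicer1 was most like Gbx2 (0.98), Tarbp2 like Cltc (0.99), Ago1 like Ppip5k2 (0.99), Ago3 like Sec14l1 (0.99) and Ago4 like Slc25a39 (0.97), all on other chromosomes. These values are the highest among many genes and describe 8 arrays only.

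Rb genotype was compared with the model as a covariate, with 6 Rbfl/+ and 2 Rb+/+ tumours. None of the 10 genes passed limma's test or reached an unadjusted p under 0.05, where 0% and 4.73% of all genes did (3.09% higher and 1.64% lower in Rbfl/+ at the unadjusted p). Ago3 had the smallest p, at 9.28 ± 0.33 in Rbfl/+ tumours (SD, n = 6) and 8.90 ± 0.77 in Rb+/+ tumours (SD, n = 2), a difference of 0.38 (SE 0.21, limma adjusted p = 0.836). Leaving out shRNA OS replicate 2 gave 0.07, and leaving out Cre:lox OS replicate 1 gave 0.70. Drosha differed by -0.34 (SE 0.28), Dicer1 by -0.29 (SE 0.20), Xpo5 by 0.29 (SE 0.22) and Ago2 by -0.12 (SE 0.22). With shRNA OS replicate 2 as 1 of the 2 Rb+/+ tumours, 5 of the 10 differences (Xpo5, Prkra, Ago1, Ago2 and Ago4) turned sign when it was left out, and those of Drosha and Dgcr8 did so without Cre:lox OS replicate 1. In those fits the lone Rb+/+ tumour is assumed to vary like the others.

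Tibial tumours were compared with those of the humerus and scapula in the same way, over 5 and 3 tumours. None of the 10 genes passed limma's test, where 0% of all genes were called, and Dgcr8 alone reached an unadjusted p under 0.05, where 5.64% of all genes did (2.32% higher and 3.33% lower in tibial tumours). Dgcr8 was 9.34 ± 0.17 in tibial tumours (SD, n = 5) and 9.65 ± 0.03 in the others (SD, n = 3), a difference of -0.35 (SE 0.15, limma adjusted p = 0.872). The humerus and scapula tumours held the 3 highest Dgcr8 values, 9.66 in shRNA OS replicate 4 and 9.67 and 9.61 in Cre:lox OS replicates 1 and 2. Drosha was also lower on average in tibial tumours, by -0.45 (SE 0.23, limma adjusted p = 0.943), and Ago4 by -0.37 (SE 0.19, limma adjusted p = 0.943). For Drosha, omission of shRNA OS replicate 4 gave -0.85, and omission of Cre:lox OS replicate 1 gave -0.23. Ago2 differed by -0.01 (SE 0.21), with a sign that depended on the setting.

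The wider pathway was read from 6 lists with 57 genes, of which 55 were measured. None of the 55 passed limma's test between the models. At an unadjusted p under 0.05 stood 2 genes that were higher and 4 that were lower on average in shRNA OS, where 3.61% and 6.02% of all genes did so, and the median difference of the 55 was -0.04. Among 8 cofactors of the primary transcript, the leading genes were Ncbp1, a cap-binding subunit, at -0.32 (SE 0.13), and Khsrp, which binds let-7 precursors, at -0.23 (SE 0.15). Among 9 genes of precursor regulation, Tut4, which adds uridines to let-7 precursors, was 9.11, 9.44, 9.67 and 9.54 in shRNA OS replicates 1 to 4, against 9.36, 8.38, 8.67 and 8.65 in Cre:lox OS replicates 1 to 4. Only Cre:lox OS replicate 1 lay within the shRNA OS range, and the difference was 0.67 (SE 0.22, limma adjusted p = 0.359). Dis3l2, the exonuclease of uridylated precursors, stood at 0.27 (SE 0.14).

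Of 6 chaperones that load Argonaute, 4 had lower means in shRNA OS. Hsp90aa1, an HSP90 that opens Argonaute for the duplex, was 11.46, 10.91, 10.57 and 11.21 in shRNA OS replicates 1 to 4, against 12.12, 11.57, 11.95 and 11.54 in Cre:lox OS replicates 1 to 4. The models did not overlap, and the difference was -0.75 (SE 0.22, limma adjusted p = 0.295). Dnaja2, an HSP40 cochaperone, stood at -0.21 (SE 0.14). Of 17 genes of target repression and mRNA decay, 10 were higher and 7 lower on average in shRNA OS.

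In that list the decapping enzyme Dcp2 was 8.40, 8.05, 8.30 and 8.24 in shRNA OS replicates 1 to 4, against 9.09, 8.61, 8.75 and 8.82 in Cre:lox OS replicates 1 to 4. The models were separate, by -0.57 (SE 0.15, limma adjusted p = 0.239). The deadenylase Pan2 was separate in the other direction, by 0.37 (SE 0.12, limma adjusted p = 0.386). The Argonaute-binding scaffold genes Tnrc6a, Tnrc6b and Tnrc6c, named after their values were seen, stood at 0.14, -0.10 and 0.11.

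Each of the 8 genes of small RNA nucleases and turnover was lower on average in shRNA OS, and their median difference was -0.22. They were led by Eri1, a nuclease that trims small RNAs, at -0.45 (SE 0.18), and Tsn, which encodes translin, at -0.40 (SE 0.19). Neither passed limma's test (adjusted p 0.466 and 0.534). The median was -0.10 without shRNA OS replicate 2 and -0.40 without shRNA OS replicate 1, with 7 of 8 lower in both. The 7 genes of the PIWI pathway, which acts mainly in the germline, had a median difference of 0.05, which turned to -0.02 with quantile normalisation and fell on either side of 0 when tumours were left out, with Mael at 0.17 and Tdrd1 at -0.17, and none of the 7 lay above the array median in all tumours.

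**Figure D5:**
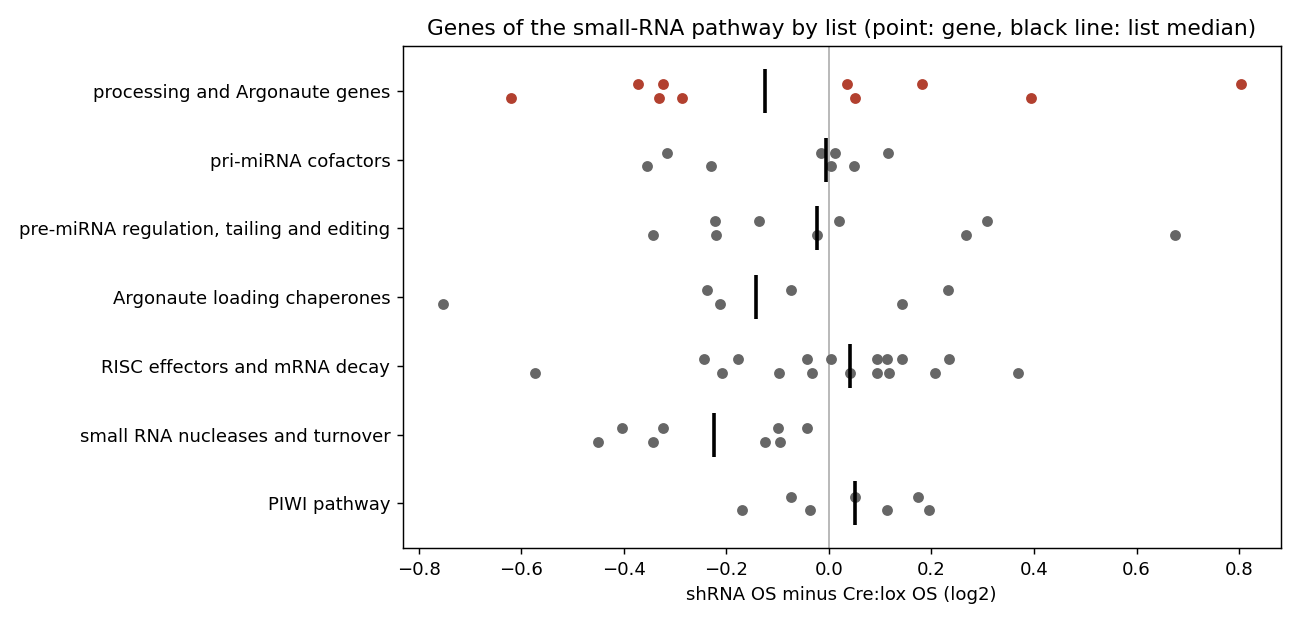
Difference in log2 expression, shRNA OS minus Cre:lox OS (x axis), of the 10 processing and Argonaute genes (red) and of the measured genes of 6 pathway lists (grey); each point is a gene and each black line a list median. The red points run from -0.62 (Ago3) to 0.80 (Ago2), and the 8 nuclease and turnover genes all lie below 0.

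The array also reads the genomic loci of microRNA hairpins, the substrates of these enzymes. Whether such a probe set reads the primary transcript, the precursor or the mature strand is not stated in the labels. All 296 loci with a single microRNA symbol, host genes left out, were examined, a set added after the data were seen. Only 41 of them lay above the array median in all 8 tumours. Of the 296, 209 were higher and 87 lower on average in shRNA OS, with a median difference of 0.08. Of all 19938 genes, 10351 were higher and 9587 lower, with a median of 0.01. The split of the loci was 190 against 106 with quantile normalisation and 187 against 109 with the arrays centred on their medians. Without shRNA OS replicate 2 the split was 169 against 127 with a median of 0.03, and without Cre:lox OS replicate 4 it was 164 against 132 with a median of 0.03. The array of shRNA OS replicate 2 held the highest value in 45.3% of the loci and in 21.4% of all genes. None of the 296 passed limma's test. Of the 296 loci 13 reached an unadjusted p under 0.05, all with higher means in shRNA OS. Of all genes 3.61% were higher and 6.02% lower at this p. The share of higher loci was thus near that of all genes, while none of the loci was lower at this p.

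The 6 loci of smallest p were Mir151, Mir218-1, Mir674, Mir26a-1, Mirlet7e and Mir30e. Mir151, which lies next to Ago2, was 6.09, 7.24, 7.17 and 7.29 in shRNA OS replicates 1 to 4, against 6.13, 5.95, 6.0001 and 5.84 in Cre:lox OS replicates 1 to 4. In this locus shRNA OS replicate 1 lay with the Cre:lox OS tumours. Leaving that tumour out gave 1.25 (SE 0.14, limma adjusted p = 0.031), in a fit that called 42 of all genes against 4 with all tumours. The omitted tumour is the one that stood out in Mir151 itself, so this value is a description only. Mirlet7e was 7.92, 7.70, 8.09 and 8.36 in shRNA OS replicates 1 to 4, against 7.52, 7.33, 7.42 and 7.68 in Cre:lox OS replicates 1 to 4. The models did not overlap there, and the difference was 0.53 (SE 0.17, limma adjusted p = 0.336). The other differences were 1.48 (SE 0.42) for Mir218-1, 0.59 (SE 0.18) for Mir674, 0.68 (SE 0.21) for Mir26a-1 and 0.73 (SE 0.24) for Mir30e. Mir26a-1 and Mir30e lay below the array median in all 8 tumours.

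The 5′ arm strands of Mir218-1, Mir674, Mir26a-1, Mirlet7e and Mir30e are shown because an Argonaute reads its targets through their seed, bases 2 to 8, given in capitals. The sequences are from RefSeq (GRCm38.p6), 5′ to 3′.
miR-218-5p: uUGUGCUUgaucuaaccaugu
miR-674-5p: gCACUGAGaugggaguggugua
miR-26a-5p: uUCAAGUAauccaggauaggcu
let-7e-5p: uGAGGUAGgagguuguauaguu
miR-30e-5p: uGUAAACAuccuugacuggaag
The 5 seeds differ from each other. That of let-7e-5p is shared by 11 mature names in the table, that of miR-30e-5p by 4, and that of miR-674-5p by 3. The seeds of miR-218-5p and miR-26a-5p are each shared by 2 names.

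Markers of other cells and of cell division differed between the models on average beside these genes. The marker that leads each list here is the one of highest level, not of largest difference. All 6 macrophage markers, led by Lyz2, were lower on average in shRNA OS (median difference -0.84, from -1.19 without shRNA OS replicate 1 to -0.54 without shRNA OS replicate 4), with list means from 9.69 to 11.19 in shRNA OS and from 10.29 to 11.53 in Cre:lox OS. All 6 skeletal muscle markers, led by Acta1, were lower on average (median difference -0.81, from -1.53 without shRNA OS replicate 3 to -0.33 without shRNA OS replicate 2), with list means from 7.74 to 11.19 in shRNA OS and from 8.33 to 10.97 in Cre:lox OS. Of 6 proliferation markers, led by Pcna, 5 had lower means (4 with quantile normalisation), with list means from 10.16 to 10.81 in shRNA OS and from 10.51 to 10.80 in Cre:lox OS. All 5 endothelial markers, led by Cdh5, had higher means (median difference 0.17, but 0.05 and 3 of 5 higher without Cre:lox OS replicate 3), with list means from 9.27 to 9.84 in shRNA OS and from 8.77 to 9.82 in Cre:lox OS. All 6 lymphocyte markers, led by Cd3e, had higher means (median difference 0.16, but 5 of 6 higher with quantile normalisation). Their list means ran from 6.06 to 6.51 in shRNA OS and from 5.80 to 6.28 in Cre:lox OS. Of the 3 measured erythroid markers, led by Slc4a1, 2 had higher means and 1 a lower mean. Their list means ran from 6.62 to 7.06 in shRNA OS and from 6.56 to 7.10 in Cre:lox OS. No marker of these 2 lists lay above the array median in all 8 tumours. Over the 8 tumours Ago2 correlated at -0.81 with the mean of the proliferation markers, -0.61 with macrophage and -0.56 with skeletal muscle markers. It correlated at 0.56 with endothelial, 0.35 with lymphocyte, 0.25 with osteoblast lineage and 0.03 with erythroid markers. These values are descriptions that pool the models. They include shRNA OS replicate 2, which had the highest Ago2 and the lowest mean of the proliferation markers. The part of these cells in the differences of the 10 genes was not tested.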

How the data were processed

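RNA from 8 tumours was measured on 1-colour arrays. The deposited table holds log2 values made by the authors with RMA, per the submitters' processing notes. These list the build mm9 and no RMA version. Of 35556 probe sets 21789 had 1 gene symbol in the platform annotation, 1621 had several and 12146 had none listed. The highest-mean probe set stood for each of 19938 genes, and the 10 members had 12 probe sets. A reference gene table of another build (GRCm38.p6) gave chromosomes and neighbour order only, for 19856 genes.

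The labelled model gave the groups. Each title carries a tumour number of its own, but replicate numbers follow accession order. limma 3.58.1 (lmFit, eBayes; R 4.3.3) tested differences over all genes, unfiltered and 2-sided, and adjusted p-values by Benjamini-Hochberg, called at 0.05. Comparisons of Rb genotype and site had the model as a covariate. The fit was tested on simulated data. With 4 arrays a group, the number of arrays limits the precision.

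The members and lists were chosen with earlier results of these data known. Named beyond the members were the 2 genes of smallest p of each pathway list, the genes most alike in pattern, the nearest neighbours of members and the leading marker of each cell list. Pth1r and further neighbours of Ago2 were named after their values were seen. The hairpin loci were added later. Hnrnpa1 and Hsp90ab1 of the pathway lists, and 8 of 46 listed markers, had no probe set with a single symbol. Alternatives were quantile normalisation, median centring, removal of dim genes, averaging of probe sets, eBayes with trend and robust, array weights, covariates or subsets of tumours, subtraction of neighbours in 2 forms, and leaving out each tumour.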

Additional observations from a re-analysis of the deposited data

Results flagged for a closer look

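In 3 of 98 sets of 4 tumours of a model, 1 tumour lay far from the other 3 by Dixon's critical value for 4 samples, and about 1 set in 20 would pass it by chance. Mir151 was 6.09 in shRNA OS replicate 1, far below the other 3 shRNA OS tumours (7.17 to 7.29). Col1a1 was 13.00 in Cre:lox OS replicate 4, below the other 3 Cre:lox OS tumours (13.55 to 13.61). Cd3e was 6.92 in Cre:lox OS replicate 2, below the other 3 (7.29 to 7.34). None of the 10 microRNA processing and Argonaute genes met the criterion in either model, which includes the high Ago2 and low Ago3 of shRNA OS replicate 2.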

How the results depend on the processing

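None of the 10 genes passed the threshold in any comparison under any alternative, and none of the 55 pathway genes passed between the models. Between the models Ago2, Ago3, Ago1, Ago4, Dicer1 and Xpo5 kept their direction under all 20 alternatives. With the median level of the 20 neighbours subtracted, Tarbp2 turned to 0.0144, Prkra to 0.27 and Drosha to -0.19. The adjusted p of Ago2 ran from 0.0986 with array weights to 0.764 in tibial tumours only. Drosha turned to -0.18 with array weights and -0.0856 with the deviation of neighbours subtracted, and Dgcr8 to -0.0254 with array weights. By site Xpo5 turned to 0.000336 with quantile normalisation and 0.0458 with array weights. Ago2 by site turned to 0.0221 with quantile normalisation, 0.00683 with the mean of probe sets and 0.20 with no covariate, and Ago3 by site turned to -0.0295 with no covariate. Leaving out each tumour in turn, the difference between models ran from -0.10 to 0.28 for Drosha and from -0.0389 to 0.13 for Dgcr8. By Rb genotype it ran from -0.92 to 0.24 for Drosha, -0.32 to 0.000333 for Dgcr8, -0.0612 to 0.65 for Xpo5, -0.18 to 0.40 for Prkra, -0.0665 to 0.27 for Ago1, -0.46 to 0.21 for Ago2 and -0.13 to 0.43 for Ago4. By site it ran from -0.15 to 0.0363 for Xpo5 and from -0.14 to 0.21 for Ago2. The cause was not tested. The count of all genes called between models was 4, and ran from 0 to 42 leaving out each tumour. The 42 came when the first shRNA OS tumour was dropped, and the 0 when the third of either model or the fourth of shRNA OS was. It was 8 with quantile normalisation, 2 with centring or in tibial tumours only, 9 in Rbfl/+ tumours only, 13 with site as a covariate and 19 with array weights. Subtraction of neighbours called 14 genes with the level and 3 with the deviation, which was added after the data were seen. No paired analysis was possible because the labels give no shared replicate numbers. Signal over background was not analysed here.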

Other observations

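For 5 of the 10 genes (Drosha, Dgcr8, Xpo5, Prkra and Ago2) the gene with the most similar values over the 8 tumours lay on the same chromosome. This held for 13.1% of 18600 genes examined in the same way, where the gene counts of the chromosomes alone would give 5.64%. The most similar gene lay 2 measured genes away for Ago2, 19 for Xpo5, 31 for Drosha, 137 for Dgcr8 and 411 for Prkra. These counts were made after the data were seen, rest on 8 arrays and were not tested.

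The neighbours of Dicer1 had their highest value in shRNA OS replicate 2 in 12 of 20 genes, where 21.4% of all genes had theirs. Dicer1 itself had its highest value in shRNA OS replicate 4. The log2 ratio of Ago2 to Ago3 on the same array was 1.70, 3.14, 1.75 and 2.498 in shRNA OS replicates 1 to 4, against 0.74, 1.004, 0.87 and 0.77 in Cre:lox OS replicates 1 to 4. It was chosen after the values were seen, and its level has no meaning between probe sets.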
